A study of Mus musculus with 18 samples.

Results

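The 55 genes described here encode the chains of collagens and laminins, the main structural proteins of the extracellular matrix. They are all entries of the deposited gene table, 55 of 23924 genes read, whose symbol consists of Col, a type number, the letter a and a chain number, or of Lama, Lamb or Lamc and a chain number. The choice used names only and no measured value. Of these genes, 17 build basement membranes (6 type IV collagens, 5 laminin alpha, 3 laminin beta and 3 laminin gamma chains) and 38 encode fibrillar and other collagens.

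Collagens are triple helices of alpha chains, and laminins are cross-shaped assemblies of an alpha, a beta and a gamma chain. Type IV collagen and laminin each form a network, and the linked networks make the basement membrane, the thin sheet on which endothelial cells rest, in which pericytes are enclosed and to which the endfeet of astrocytes attach around brain vessels. Fibrillar collagens form the cables of connective tissue and in brain are known mainly from the meninges and from fibroblasts along larger vessels.

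RNA came from astrocytes of M1, the primary motor cortex, of wild-type C57BL/6 mice, with no transgene or drug named in the labels. Naive mice were untrained. Novice mice had 3 days of training in a task in which pushing a lever after a cue earned water, and expert mice were fully trained, for a time not stated in the labels. The trained mice were kept on restricted water, and whether the naive mice were too is not stated. Each group had 6 libraries, labelled as 2 females and 4 males, from mice of 12 to 21 weeks (naive), 11 to 13 weeks (novice) and 13 to 15 weeks (expert). Values are in FPKM, counts of sequenced fragments divided by transcript length and by library size, so levels can be compared between genes.

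The cells carried the label of astrocytes, and their 16 astrocyte markers summed to between 1638 and 8252 FPKM per library. The 10 neuron markers summed to between 136 and 1246 FPKM and the 7 oligodendrocyte markers to between 58.1 and 238 FPKM. The 15 endothelial markers summed to between 237 and 943 FPKM, so the libraries also held RNA of other cells, among them vessel cells. The 12 markers of vascular and meningeal fibroblasts summed to between 59.4 and 169 FPKM. Igfbp2 (mean 39.0 FPKM in naive) and Mgp (29.5) were the highest of them. The others averaged 0.967 (Lum) to 8.62 (Igf2) FPKM in naive, so this sum says little about fibroblast RNA. Libraries differed in a background read from 1467 autosomal genes of olfactory, vomeronasal, trace amine and taste receptor families, which brain cells hardly transcribe. The mean of these silent genes, after trimming 10% at each end, was 0.0646 FPKM in expert 3, at most 1.51 FPKM in the other libraries of lower signal and 2.21 to 3.23 FPKM in the 8 libraries of higher signal. Lower signal was found in 4 naive, 2 novice and 4 expert libraries, so the novice group held more of the libraries of higher signal (4 of 6, against 2 of 6 in naive and expert). Sex-linked transcripts went against the labelled sex in novice 1 (labelled female, Xist at 1.6 FPKM, Ddx3y at 12.6 FPKM) and novice 3 (labelled male, Xist at 17.97 FPKM, Ddx3y at 3.29 FPKM), and results are given below with and without both libraries.

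Few of the chains stood clear of this background. All 55 reached 1 FPKM in at least 6 libraries and were tested, but 8 were above the silent-gene mean in all 18 libraries: Lamb2, Col4a1, Col4a2, Lamc1, Col11a2, Lama2, Lama3 and Lamc3. The first 4 were also above 2 times that mean in all 18. Of the 8, 7 are basement membrane chains and 1 is a fibrillar collagen. The other 47 chains had means of 1.10 to 4.83 FPKM, and 45 of these 47 were on average higher in the libraries of higher silent-gene signal. The 5 skeletal muscle myosins, long transcripts that are silent in brain, averaged 0.0921 to 2.42 FPKM per library, above the silent-gene mean in expert 3 and below it in the other 17. Above the highest of the 5 myosins in all 18 libraries stood 7 chains, the same set without Lamc3, which was above it in 17.

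**Figure D1:**
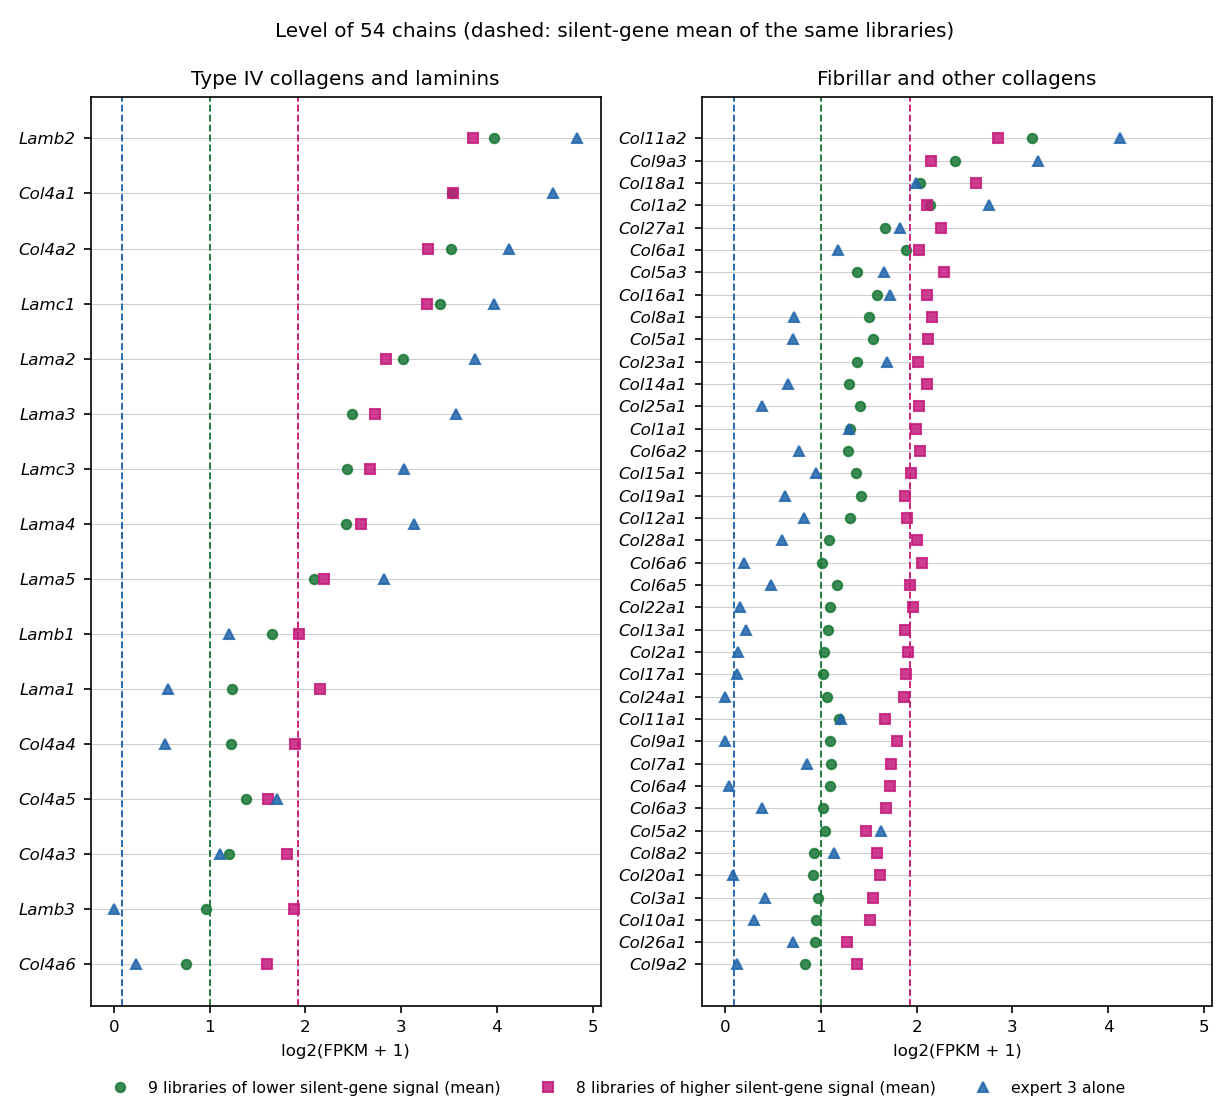
Mean level of 54 of the 55 chains as log2(FPKM + 1) in the 9 libraries of lower silent-gene signal other than expert 3 (circles), the 8 libraries of higher signal (squares) and expert 3 (triangles), with dashed lines at the silent-gene mean of the same libraries (0.0646 FPKM for expert 3). From Lamb2 down to Lama5 on the left and from Col11a2 down to Col1a2 on the right all symbols stand to the right of the 3 lines, and many of the other chains lie near the line of their own libraries.

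In expert 3, where the silent genes were nearly absent, the difference between abundant and scarce chains was widest. Lamb2 stood there at 27.7 FPKM, Col4a1 at 23.1, Col4a2 at 16.4, Col11a2 at 16.4, Lamc1 at 14.6, Lama2 at 12.7 and Lama3 at 10.9. In the same library Col24a1, Lamb3 and Col9a1 were listed at 0, and 22 of the 55 chains had their lowest value of all 18 libraries. Above 1 FPKM in expert 3 were 12 of the 17 basement membrane chains and 13 of the 38 other collagens. Basement membrane chains made up 69.0% of the summed FPKM of the 55 genes in expert 3 and 40.2% in naive 6, the library with the lowest share. That share averaged 56.2% ± 7.46 (SD, n = 10, range 45.8% to 69.0%) in the libraries of lower signal and 44.4% ± 2.72 (n = 8, range 40.2% to 48.8%) in those of higher signal.

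Type IV collagen is the scaffold of all basement membranes, and its common form joins the products of Col4a1 and Col4a2. Those genes lie head to head and are transcribed in opposite directions from a shared start region, which is why that region is shown here. In the RefSeq annotation of mouse build GRCm38.p6 the windows of 300 bases around the 2 starts share 78 bases on opposite strands. The first is chr8:11312777-11313076 on the minus strand and the second chr8:11312555-11312854 on the plus strand. Capitals mark every CCAAT box (CCAAT, or ATTGG for the other strand) and GC box (GGGCGG, or CCGCCC for the other strand), and neither window holds a TATA box (TATAAA on either strand).
Col4a1: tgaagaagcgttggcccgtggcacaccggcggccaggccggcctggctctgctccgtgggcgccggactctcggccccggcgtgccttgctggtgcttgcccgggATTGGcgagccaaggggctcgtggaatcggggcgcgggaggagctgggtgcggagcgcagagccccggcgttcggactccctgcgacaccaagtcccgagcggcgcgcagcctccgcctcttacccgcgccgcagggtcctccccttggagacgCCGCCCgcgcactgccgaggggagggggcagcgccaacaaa
Col4a2: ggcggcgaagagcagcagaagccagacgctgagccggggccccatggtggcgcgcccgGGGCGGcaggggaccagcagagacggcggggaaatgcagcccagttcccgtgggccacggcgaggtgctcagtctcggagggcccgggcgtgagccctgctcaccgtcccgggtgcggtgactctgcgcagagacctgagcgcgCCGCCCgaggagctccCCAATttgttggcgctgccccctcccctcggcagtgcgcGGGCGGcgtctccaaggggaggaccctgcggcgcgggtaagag

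The Col4a1 window holds 1 CCAAT and 1 GC box and the Col4a2 window 1 and 3. For 40 of the 55 genes 44 windows were found. A CCAAT box was present in 4 of 11 basement membrane windows and 10 of 33 windows of other collagens, against 37.4% of all 32817 promoter windows of that length. A GC box was present in 7 of 11 and 19 of 33 (35.6% of all windows), and a TATA box in 0 of 11 and 5 of 33 (13.6% of all windows). These matches describe letters in the windows and not bound sites.

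Col4a1 ranged in FPKM from 7.89 to 11.5 in naive (median 9.70), from 6.52 to 12.8 in novice (median 11.2) and from 9.47 to 23.1 in expert libraries (median 12.2). Its lowest expert values overlapped the other groups, while expert 3 (23.1) and expert 6 (17.2) stood above all other libraries. The log2 difference between expert and naive was 0.43 ± 0.22 (SE; limma, adjusted p = 1.0), and that between expert and novice 0.38 (adjusted p = 0.45). Col4a2 ranged from 7.13 to 11.7 FPKM in naive (median 7.96), from 7.72 to 11.9 in novice (median 9.16) and from 5.66 to 16.4 in expert (median 12.7). Again the groups overlapped, since expert 4 was the lowest of all 18 libraries and expert 3 and expert 6 the highest. For Col4a2 the expert minus naive difference was 0.41 ± 0.22 on the log2 scale (limma, adjusted p = 1.0). Without expert 3 and expert 6 the differences from naive were 0.15 for Col4a1 and 0.17 for Col4a2.

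Col4a3, Col4a4, Col4a5 and Col4a6 encode the chains of the more specialised type IV networks known from kidney, eye and other epithelia. Their means over all libraries lay between 1.25 FPKM (Col4a6) and 1.90 FPKM (Col4a4), at 0.73 to 1.13 times the silent-gene mean in the median library. Col4a5 stood at 2.26 FPKM in expert 3 and Col4a6 at 0.175. Col4a3 shares 563 exon bases with a gene on the opposite strand, and whether counting used strand is unknown from the sources used here.

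Laminin alpha chains carry the sites that bind receptors on cells. Lama2, an alpha chain known from the laminin of astrocytes and pericytes, was the most abundant of them, with 4.69 to 8.22 FPKM in naive (median 5.77), 5.29 to 7.89 in novice (median 5.76) and 6.12 to 12.7 in expert libraries (median 7.94). Naive and novice libraries covered nearly the same range, and only expert 3, expert 6 and expert 1 exceeded the highest naive value. The expert minus naive log2 difference was 0.41 ± 0.20 (limma, adjusted p = 1.0). It was 0.19 without expert 3 and expert 6. Its exons share 631 bases with a gene on the opposite strand, and those of Lama3 197 bases.

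Lama4 and Lama5 encode the alpha chains of endothelial laminins. Lama4 stood at 2.29 to 5.16 FPKM in naive (median 4.53), 3.0 to 7.91 in novice (median 4.69) and 2.55 to 7.78 in expert (median 5.56), with a log2 difference of 0.31 ± 0.26 between expert and naive (limma, adjusted p = 1.0). For Lama5 the ranges were 2.53 to 4.12 FPKM (naive), 2.42 to 4.03 (novice) and 2.77 to 6.05 (expert), and the same difference was 0.32 ± 0.20 (limma, adjusted p = 1.0). In both genes the groups overlapped. Lama3, whose product is known from epithelia, had a mean of 5.41 FPKM and was above the silent-gene mean in all 18 libraries, with its highest values in expert 3 (10.9) and naive 6 (9.39). Lama1, an alpha chain known from the meningeal surface, averaged 2.24 FPKM and was at 0.486 in expert 3.

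Among the beta chains Lamb2, a chain of vascular and synaptic basement membranes, was the most abundant of all 55 genes. It ranged from 10.5 to 17.8 FPKM in naive (median 12.1), from 9.29 to 14.0 in novice (median 11.9) and from 11.2 to 27.9 in expert libraries (median 16.1). Expert 6 (27.9) and expert 3 (27.7) were far above the rest, and the other expert libraries lay inside the naive range. The expert minus naive log2 difference was 0.47 ± 0.22 (limma, unadjusted p = 0.045, adjusted p = 1.0), the smallest p of the 55 genes in that comparison. Against novice the expert difference was 0.58 ± 0.22 (unadjusted p = 0.015, adjusted p = 0.45), and without expert 3 and expert 6 these differences were 0.16 and 0.27. Lamb1, the alternative beta chain, averaged 2.41 FPKM and Lamb3, an epithelial chain, 1.68 FPKM, and expert minus naive was 0.08 ± 0.25 for Lamb1 (limma, adjusted p = 1.0).

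Lamc1 encodes the gamma chain of most laminins. It stood at 7.82 to 9.79 FPKM in naive (median 9.04), 6.16 to 12.3 in novice (median 6.77) and 6.93 to 16.5 in expert (median 10.9). The naive libraries were closest together, and the groups overlapped, with novice 6 (12.3) high and expert 4 (6.93) low. The difference on the log2 scale was 0.33 ± 0.20 between expert and naive (limma, adjusted p = 1.0) and 0.51 ± 0.20 between expert and novice (unadjusted p = 0.021, adjusted p = 0.45). Lamc3 had a mean of 4.98 FPKM, with its highest value in expert 6 (8.95), and shares 382 exon bases with a gene on the opposite strand.

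**Figure D2:**
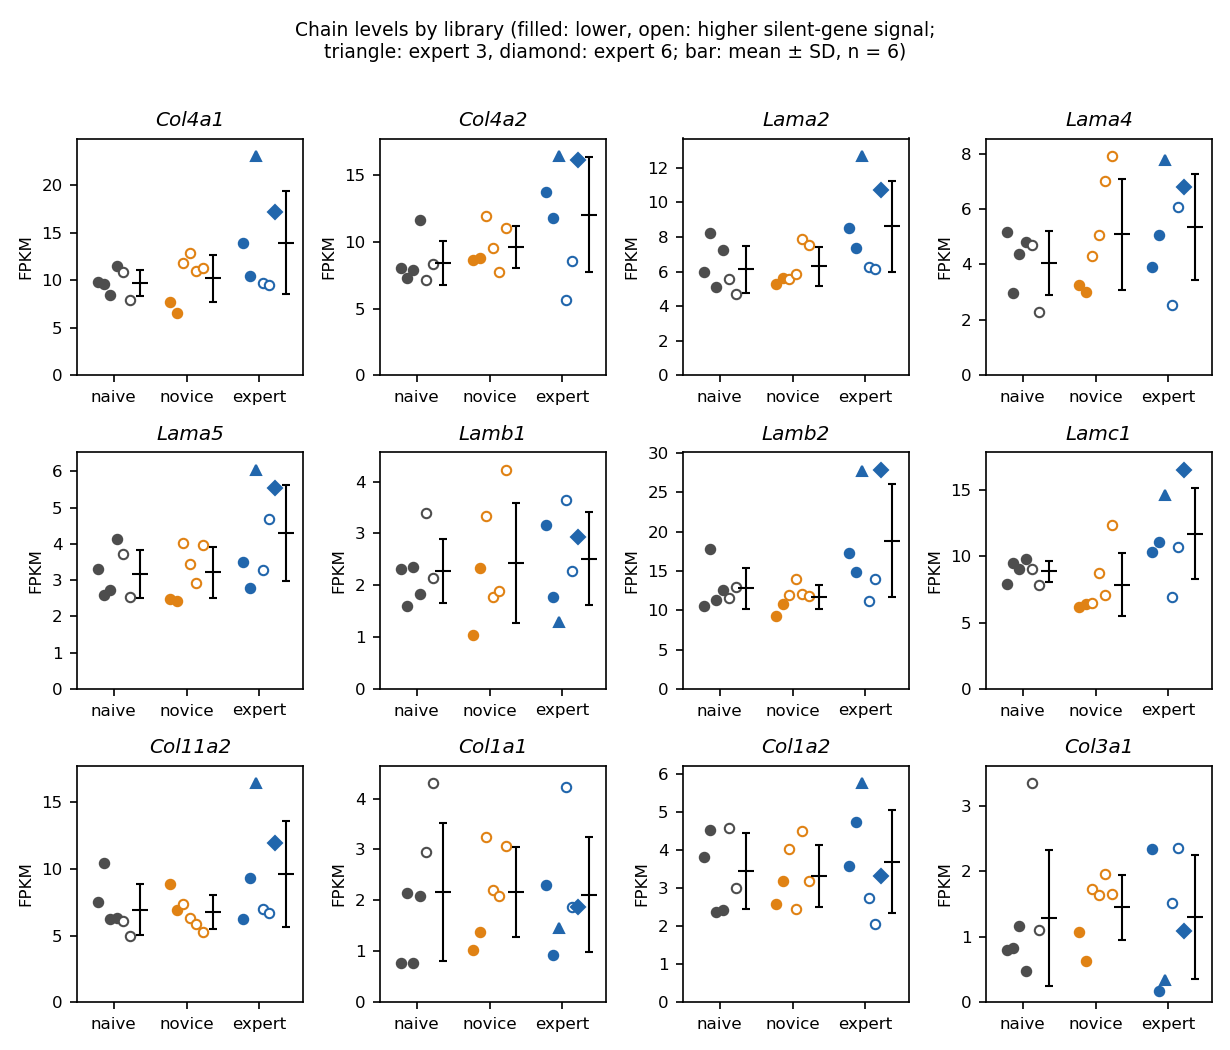
FPKM of 12 chains in each library of the naive, novice and expert groups, with the mean ± SD of 6 libraries beside the points; filled symbols are libraries of lower and open symbols of higher silent-gene signal. In Col4a1, Lamb2, Lamc1, Lama2 and Col11a2 expert 3 (triangle) and expert 6 (diamond) lie above the other libraries, whereas Col1a1 and Col3a1 show no such pair.

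Chains that build the same trimer, or take the same place in it, were compared as ratios of their FPKM. Col4a1 to Col4a2 had a median ratio of 1.07 over the 18 libraries (0.740 to 1.72), and Col4a1 was the higher in 12. Lamb2 exceeded Lamb1 in all 18 libraries, with a median Lamb1 to Lamb2 ratio of 0.164 (0.0469 in expert 3 to 0.359 in novice 6). Lama2 exceeded Lama4 in 17 libraries (median ratio 1.48) and Lama4 exceeded Lama5 in 16 (median ratio 1.27). Col1a1 was below Col1a2 in all but 2 libraries, at a median ratio of 0.604 (0.198 to 1.54). Between groups the ratios were tested on the log2 scale after adding 1 FPKM to each chain, which draws ratios of low chains toward equality. None of the 15 tests passed. The largest log2 difference, -0.52 for Lamb1 to Lamb2 in expert against novice, had p = 0.18 (exact permutation test over 924 splits, two-sided, adjusted p = 0.82).

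Across the 18 libraries Col4a1 and Col4a2 had a Pearson r of 0.73 and a Spearman rho of 0.63 on log2(FPKM + 1) (permutation p = 0.00039 and 0.0068, adjusted over 12 relations 0.0016 and 0.027). Without expert 3 and expert 6 r was 0.48. Within the 10 libraries of lower silent-gene signal r was 0.87 (adjusted permutation p = 0.0022), and within the 8 of higher signal 0.43 (adjusted p = 0.50, exact permutation test), or 0.67 without naive 6 and novice 4, the farthest from the median. Col1a1 and Col1a2, the chains of type I collagen, had an r of -0.04 (rho -0.01, adjusted permutation p = 0.87 and 0.97), 0.09 within lower and 0.12 within higher signal. Col1a1 was above the silent-gene mean in 11 of 18 libraries and Col1a2 in 14. In the median library they rested on an estimated 11 and 16 fragments, against 59 for Col4a1. The part of background and counting error in their r was not tested.

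The 11 fibrillar collagen genes were low apart from Col11a2. Col1a2, the type I chain with the higher level, ranged from 2.38 to 4.59 FPKM in naive (median 3.42), 2.44 to 4.51 in novice (median 3.19) and 2.05 to 5.77 in expert (median 3.45). Col1a1, its partner, stood at 0.766 to 4.30 FPKM in naive (median 2.11), 1.03 to 3.25 in novice (median 2.14) and 0.940 to 4.22 in expert (median 1.88). Col3a1, the collagen of soft and vascular connective tissue, stood at 0.478 to 3.35, 0.632 to 1.97 and 0.175 to 2.36 FPKM. The groups covered each other in all 3 genes, and the expert minus naive log2 differences were 0.06 ± 0.22, 0.02 ± 0.31 and -0.01 ± 0.33 (limma, adjusted p = 1.0 each). Few fragments lay behind these values, and Col3a1 rested on an estimated 6 fragments in the median library, Col1a2 on 16 and Col4a1 on 59. Of the fibroblast markers, Dcn stood at 5.09 ± 2.03 FPKM (SD, n = 6) in naive and 4.26 ± 2.48 in expert, and Lum at 0.967 ± 0.80 and 0.724 ± 0.544.

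Col11a2, a minor fibrillar chain known from cartilage, was the one collagen outside type IV that was above the silent-gene mean in every library. It ranged from 4.96 to 10.4 FPKM in naive (median 6.30), 5.28 to 8.89 in novice (median 6.60) and 6.27 to 16.4 in expert (median 8.16), with expert 3 and expert 6 the highest of the 18 libraries. Unlike most other collagens, it was higher in the libraries of lower silent-gene signal (9.02 ± 3.24 FPKM, SD, n = 10) than in those of higher signal (6.20 ± 0.83, n = 8). Its partner Col11a1 stood at 2.02 ± 0.729 FPKM (naive), 1.82 ± 0.608 (novice) and 1.23 ± 0.548 (expert), with a log2 difference of -0.44 ± 0.24 between expert and naive (limma, unadjusted p = 0.080, adjusted p = 1.0). The type V chains Col5a1, Col5a2 and Col5a3, which sit inside type I fibrils, averaged 2.48, 1.43 and 2.64 FPKM, and Col27a1 2.92 FPKM.

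Of the 9 fibril-associated collagens, which coat fibrils rather than form them, Col9a3 had the highest mean, 4.13 FPKM, and stood at 8.64 in expert 3. Its exons share 234 bases with Tcfl5 on the opposite strand. The other type IX chains were near the background, and Col9a1 gave the smallest p of the 55 genes between expert and novice. Col9a1 ranged from 0.696 to 2.22 FPKM in naive libraries, 1.38 to 3.84 in novice libraries and 0 to 3.02 in expert libraries, so the novice libraries tended to be high while the groups overlapped. Its log2 differences were 0.64 ± 0.32 for novice against naive (limma, adjusted p = 0.89) and -0.86 ± 0.32 for expert against novice (unadjusted p = 0.013, adjusted p = 0.45). Col19a1 had a like pattern, with 0.992 to 2.16 FPKM in naive libraries, 1.90 to 3.50 in novice libraries and 0.547 to 2.88 in expert libraries, and log2 differences of 0.54 ± 0.23 (limma, unadjusted p = 0.033, adjusted p = 0.89) and -0.54 ± 0.23 (adjusted p = 0.45). Both were higher in the libraries of higher silent-gene signal (Col9a1 at 2.48 ± 0.792 against 1.02 ± 0.792 FPKM, Col19a1 at 2.68 ± 0.618 against 1.56 ± 0.649), which were the more frequent in novice, and the part of that signal in these differences was not tested.

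Col9a2 stood lowest in expert, at 0.497 ± 0.331 FPKM against 1.31 ± 0.84 in naive (log2 difference -0.57 ± 0.33, limma, adjusted p = 1.0). Col26a1 was 1.62 ± 1.37 FPKM in naive and 0.804 ± 0.725 in novice (log2 difference -0.49 ± 0.36, limma, adjusted p = 0.89), and Col9a3 was 4.52 ± 1.57 and 3.39 ± 1.04 (-0.32 ± 0.25, adjusted p = 0.89). Col9a2 and Col26a1 each rested on an estimated 3 fragments in the median library. Col26a1 was above the silent-gene mean in 5 of 18 libraries, and its highest value was 4.15 FPKM in naive 5. Col16a1 averaged 2.6 FPKM and Col14a1 2.23 FPKM over the 18 libraries.

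The multiplexins Col15a1 and Col18a1 are collagens bound to vascular basement membranes, and the end of the Col18a1 product is the fragment endostatin. Col18a1 varied widely. It stood at 1.59 to 10.7 FPKM in naive (median 3.34), 1.52 to 7.07 in novice (median 5.65) and 1.46 to 7.15 in expert (median 2.40), highest in naive 3 and second in expert 5. Col15a1 averaged 1.70 ± 0.544 FPKM (naive), 2.37 ± 0.99 (novice) and 2.25 ± 1.35 (expert). Of the 9 microfibril and network collagens, Col6a1, a chain of the beaded type VI filaments around cells, averaged 2.79 FPKM, its partner Col6a2 2.14 FPKM and Col8a1, of the endothelial type VIII network, 2.50 FPKM. The 4 transmembrane collagens averaged 1.72 to 2.28 FPKM, with Col23a1 the highest. The 3 remaining collagens averaged 1.12 to 1.94 FPKM.

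Between novice and naive 0 of 55 chains passed the limma test at an adjusted p of 0.05, as did 0 of 21745 genes (0%), and 1 chain, Col19a1, had an unadjusted p under 0.05 (4.6% of all genes). No chain had novice and naive values that did not overlap (0.0644% of all genes in each direction). Higher in novice were 11 of 17 basement membrane chains and 30 of 38 other collagens, against 57% of all genes, with median log2 differences of 0.04 and 0.15 beside 0.07 for all genes. Of all genes with a mean of 1 to 3 FPKM, where most of the other collagens lie, 75.6% were higher in novice (median 0.23), and of those at 6 to 20 FPKM 39.7% (median -0.08). Without novice 1 and novice 3 the counts were 12 and 31, and 0 chains had an unadjusted p under 0.05. Without naive 3, novice 5 or novice 6 alone 7 of 17 basement membrane chains were higher. Quantile normalization turned the counts to 5 and 13 and the medians to -0.11 and -0.10, and in the libraries of lower signal alone 1 of 16 tested basement membrane chains and 18 of 38 other collagens were higher in novice. In those of higher signal the counts were 7 and 12.

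Between expert and naive the medians of the 2 sides had opposite signs. No chain passed (0 of 55, 0% of all genes), and 1, Lamb2, had an unadjusted p under 0.05 (2.86% of all genes), against 0 without novice 1 and novice 3 and 0 to 6 when single libraries were left out (6 without expert 4). No chain had values of the 2 groups that did not overlap (0.0368% of all genes higher and 0.0414% lower). Higher in expert were 10 of 17 basement membrane chains but 8 of 38 other collagens, against 43.9% of all genes, with medians of 0.23 and -0.09 beside -0.05 for all genes. In a division by level, made after the values were seen, all 8 chains above the silent-gene mean in all 18 libraries were higher in expert (median 0.39), as were 10 of the other 47. Within the libraries of higher signal 5 of these 8 were higher (median 0.04). Among all genes tested, those with a mean of 6 to 20 FPKM were higher in expert in 53.9% of cases (median 0.03) and those with a mean of 1 to 3 FPKM in 33.9% (median -0.13). With expert 3 and expert 6 left out, 11 of 17 basement membrane chains and 20 of 38 other collagens were higher in expert, with medians of 0.11 and 0.01. The count of 8 other collagens became 18 without naive 5 or without naive 6, 17 without expert 3, 14 without expert 2 and 5 without expert 4. With silent-gene signal as a covariate the counts were 13 and 23, and within the libraries of higher signal 7 and 10.

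Between expert and novice no chain passed either (0 of 55, 0% of all genes, smallest adjusted p 0.45), and 4 had an unadjusted p under 0.05 (10.9% of all genes), Lamb2 and Lamc1 higher (4.88% of all genes) and Col9a1 and Col19a1 lower in expert (5.97% of all genes). The 4 became 1 without novice 1 and novice 3, 0 without expert 3 and expert 6, 0 with silent-gene signal as a covariate and 11 without expert 4. Genes with an unadjusted p under 0.05 numbered 2360 in all, 972 without expert 3 and 4376 without expert 4. Expert and novice values overlapped in all 55 chains (0.253% of all genes did not overlap and were higher, 0.179% lower). This comparison shares the expert libraries with the second and the novice libraries with the first, so the 3 comparisons are not independent. Higher in expert were 10 of 17 basement membrane chains and 4 of 38 other collagens, against 40.4% of all genes, with medians of 0.06 and -0.27 beside -0.14 for all genes. All 8 chains above the silent-gene mean were higher (median 0.38), but 4 of 8 within the libraries of higher signal (median -0.04). Without expert 3, 9 of 38 other collagens were higher. Among all genes of like level, 62.7% at 6 to 20 FPKM were higher in expert (median 0.15) and 16.2% of those at 1 to 3 FPKM (median -0.38). Quantile normalization gave 13 of 17 and 23 of 38 higher, with medians of 0.25 and 0.11, and within the libraries of higher signal the counts were 8 and 17. Without novice 1 and novice 3, 8 of 17 and 4 of 38 were higher in expert, with medians of -0.01 and -0.33.

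**Figure D3:**
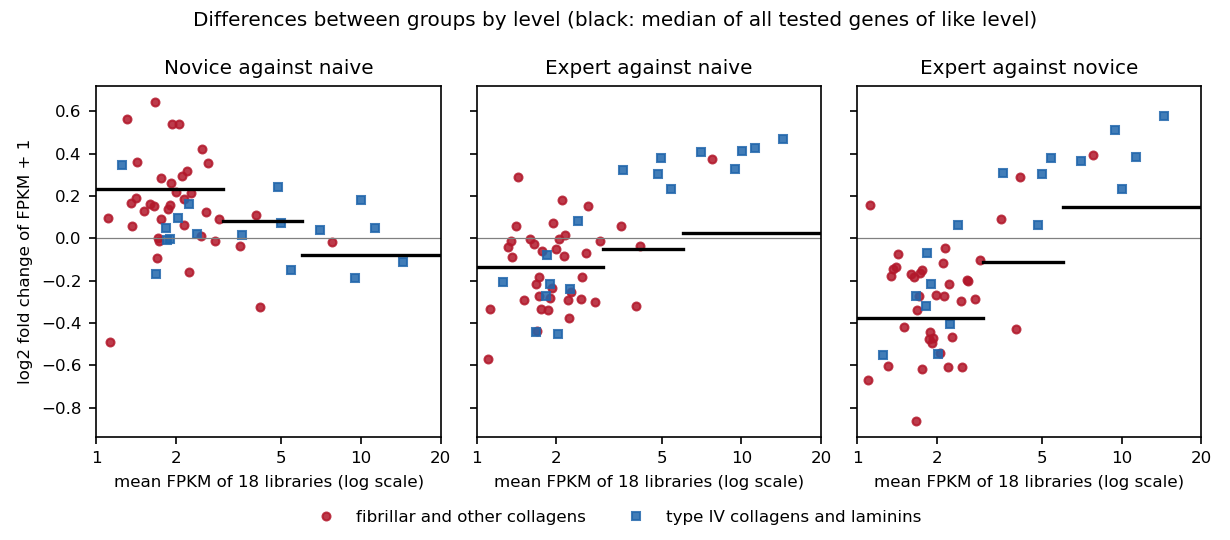
Log2 difference of FPKM + 1 against mean FPKM (log scale) for the 17 type IV collagens and laminins (squares) and the 38 other collagens (circles) in the 3 comparisons, with black bars at the median of all tested genes of 1 to 3, 3 to 6 and 6 to 20 FPKM. In both expert panels the chains of 5 FPKM and more lie above zero and most chains under 3 FPKM below it, as the medians of all genes do to a lesser extent in expert against naive.

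Expert 3 and expert 6 held the highest values of many chains. They were the 2 highest of all 18 libraries for 7 of the 8 chains above the silent-gene mean and for 1 of the other 47, Lama5. The same libraries had the highest means of the 15 endothelial markers, 5.52 and 5.69 on the log2(FPKM + 1) scale, against 4.24 to 4.70 (naive), 3.79 to 4.87 (novice) and 4.31 to 4.90 (the other expert libraries). This was not particular to endothelial markers. Expert 3 and expert 6 were also the 2 highest for pericyte and smooth muscle markers (3.83 and 4.10) and oligodendrocyte precursor markers (4.08 and 3.79). For astrocyte markers expert 3 was the highest (8.06). All 15 endothelial markers were higher in expert than in naive (median log2 difference 0.58, 9 with an unadjusted p under 0.05, none adjusted), as were all 12 pericyte and smooth muscle markers (median 0.42), all 16 astrocyte markers (median 0.20) and 4 of 12 fibroblast markers (median -0.13). Also higher were all 6 oligodendrocyte precursor markers (median 0.47) and 4 of 10 microglia and macrophage markers (median -0.08). Of 10 neuron markers 1 was higher (median -0.20), and of 7 oligodendrocyte markers 0 (median -0.28). Cldn5, an endothelial tight junction gene, stood at 32.2 ± 5.9 FPKM (naive, SD, n = 6), 32.4 ± 9.81 (novice) and 56.5 ± 26 (expert). Summed endothelial markers ranged from 320 to 464 FPKM in naive libraries, 237 to 518 in novice libraries and 353 to 943 in expert libraries, none of the 15 was at 0 in any library, and their part in the differences of the chains was not tested. In bulk RNA a difference in the number of cells of a type and one in RNA per cell cannot be told apart.

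Col4a1 followed the endothelial markers over the 18 libraries (r = 0.90, rho = 0.81, adjusted permutation p = 0.00012 and 0.00054), also without expert 3 and expert 6 (r = 0.81). Within the 10 libraries of lower signal r was 0.95 (rho 0.98, adjusted permutation p = 0.0009 and 0.00012). Within the 8 of higher signal it was 0.55 (adjusted p = 0.36, exact permutation test) and -0.07 without the 2 libraries farthest from the median, naive 6 and expert 4, on which the value there rests. Col1a2 and the fibroblast markers had an r of -0.05 (adjusted permutation p = 0.87), with -0.09 within lower and 0.53 within higher signal (adjusted p = 0.87 and 0.36, permutation tests). The median of the 38 other collagens lay between 0.876 and 1.05 times the silent-gene mean in the 8 libraries of higher signal. Of the 10 libraries of lower signal, expert 3 stood at 9.81 times and the others between 1.10 and 1.71 times.

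**Figure D4:**
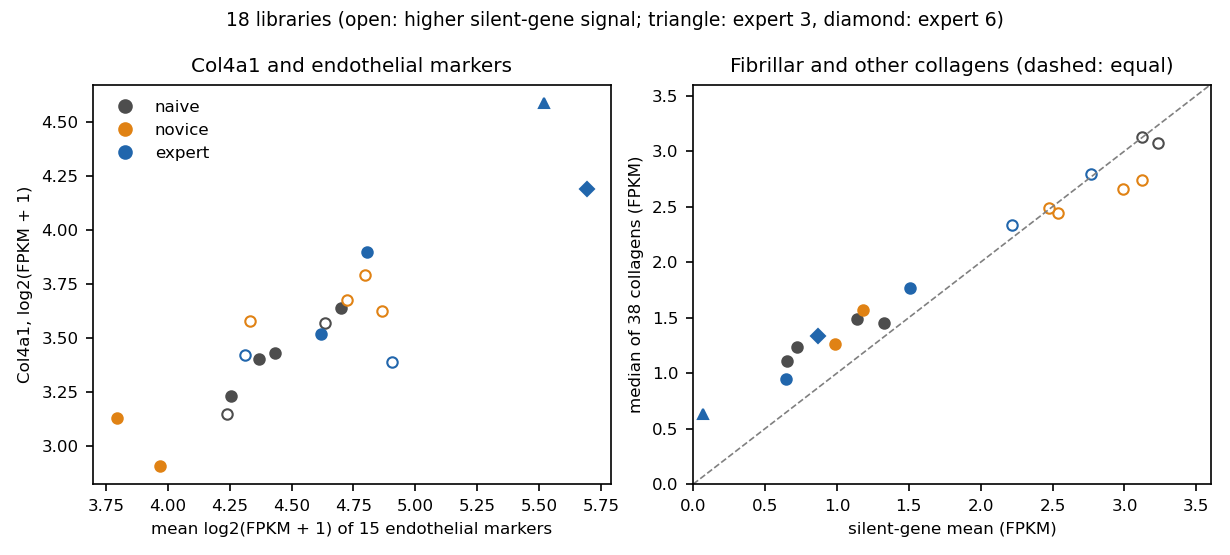
Left, Col4a1 against the mean of 15 endothelial markers, both as log2(FPKM + 1), in the 18 libraries; right, the median FPKM of the 38 fibrillar and other collagens against the silent-gene mean, with a dashed line of equality. On the left expert 3 (triangle) and expert 6 (diamond) are at the upper right; on the right the 8 libraries of higher signal (open) lie near the line and the 10 of lower signal above it.

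Genes that act on these chains were read from lists by role, and none of their members passed the limma test in any comparison. Of all genes tested, 57% were higher in novice than in naive, 43.9% in expert than in naive and 40.4% in expert than in novice. At a mean of 6 to 20 FPKM these shares were 39.7%, 53.9% and 62.7%, and at 1 to 3 FPKM 75.6%, 33.9% and 16.2%. Of 12 other basement membrane components, 5 were higher in novice than in naive, 9 in expert than in naive and 10 in expert than in novice. Agrn, the proteoglycan agrin, stood at 11.4 ± 1.68 FPKM (naive), 9.82 ± 0.907 (novice) and 15.2 ± 5.09 (expert), and its log2 difference between expert and novice was 0.53 ± 0.19 (limma, adjusted p = 0.45). Hspg2, the proteoglycan perlecan, stood at 4.07 ± 0.499, 3.86 ± 1.37 and 5.23 ± 1.59 FPKM. Tinagl1 stood at 7.44 ± 1.8 FPKM in naive and 10.1 ± 3.18 in expert, and Ntn4, a laminin-related netrin, at 4.27 ± 1.78 in naive and 2.53 ± 1.32 in novice. Smoc2 was 1.62 ± 0.568 FPKM in naive and 3.15 ± 1.84 in novice.

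Of 17 receptors for collagen and laminin, 9 were higher in novice than in naive, 10 in expert than in naive and 9 in expert than in novice. Itga1, the alpha subunit of a collagen and laminin integrin, stood at 8.10 ± 0.759 FPKM (naive), 8.13 ± 2.71 (novice) and 12.3 ± 4.05 (expert) (log2 difference expert minus naive 0.49 ± 0.23, limma, adjusted p = 1.0). Itgb1, the shared beta subunit of these integrins, stood at 20.7 ± 4.83, 18.5 ± 2.84 and 29.0 ± 8.9 FPKM. Gpr56, an adhesion receptor that binds collagen III, stood at 21.9 ± 4.37 FPKM in novice and 46.1 ± 21.3 in expert. Its log2 difference expert minus novice was 0.95 ± 0.28 (limma, adjusted p = 0.45). That of Itga6, of laminin-binding integrins, was 0.64 ± 0.23. Ddr1, a collagen-binding tyrosine kinase, stood at 7.42 ± 1.07 FPKM in naive and 4.87 ± 1.58 in novice, and Itga10 at 1.48 ± 0.639 and 2.45 ± 0.704.

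Enzymes and chaperones that fold collagen in the endoplasmic reticulum were higher in expert than in naive for 14 of 18 tested (43.9% of all genes, 53.9% of those at 6 to 20 FPKM). They were higher in novice than in naive for 5 of 18 (57% of all genes, 39.7% of those at 6 to 20 FPKM). Leprel4, of the leprecan family, had the smallest p of these, at 6.48 ± 1.5 FPKM (naive), 3.0 ± 0.512 (novice) and 5.60 ± 1.53 (expert) (log2 difference novice minus naive -0.88 ± 0.20, limma, adjusted p = 0.89). Fkbp10, a collagen chaperone, stood at 6.57 ± 1.75, 4.25 ± 1.38 and 7.10 ± 2.74 FPKM in naive, novice and expert, and Plod3, a lysyl hydroxylase and glycosyltransferase, at 5.46 ± 0.825, 4.48 ± 0.823 and 6.98 ± 2.09. Glt25d1, a collagen galactosyltransferase, stood at 6.08 ± 3.07 in naive and 7.36 ± 1.57 in expert. Astrocyte markers were lower in novice than in naive for all 16 (median log2 difference -0.57), and their part in these values was not tested.

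Of 14 procollagen processing and cross-linking genes, 11 were higher in novice than in naive and 3 in expert than in naive, beside 75.6% and 33.9% of all genes with a mean of 1 to 3 FPKM. Pcolce2, an enhancer of procollagen cleavage, stood at 1.41 ± 0.978 FPKM (naive), 3.61 ± 1.03 (novice) and 2.31 ± 0.99 (expert) (novice minus naive 0.99 ± 0.28 on the log2 scale, limma, adjusted p = 0.89), Tll2 at 2.10 ± 0.769, 2.11 ± 0.947 and 1.06 ± 1.13, and Loxl4 at 1.18 ± 0.875, 2.52 ± 1.32 and 1.15 ± 0.848. Tgm2, a cross-linking transglutaminase, was more abundant, at 9.69 ± 2.87, 8.14 ± 3.33 and 12.7 ± 5.12 FPKM. Of 16 tested proteases and inhibitors of matrix, 9, 10 and 8 were higher in the 3 comparisons. Mmp14, a membrane-bound collagenase, stood at 12.6 ± 4.09 FPKM (naive), 7.43 ± 1.28 (novice) and 14.1 ± 5.59 (expert), and Adamts1 at 6.57 ± 0.689, 5.64 ± 1.79 and 9.67 ± 3.27. The protease inhibitor Timp3 stood at 63.0 ± 19.6 FPKM in naive and 82.9 ± 31.3 in expert, and Timp4 at 32.0 ± 13.6 in naive and 19.2 ± 7.39 in novice.

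Of 13 genes of the transforming growth factor beta pathway, a known inducer of collagen genes, 7, 8 and 6 were higher in the same comparisons. The ligand Tgfb2 stood at 9.65 ± 2.08 FPKM (naive), 10.7 ± 1.88 (novice) and 14.6 ± 4.94 (expert) (expert minus naive 0.51 ± 0.21 on the log2 scale, limma, adjusted p = 1.0), and the receptor Tgfbr2 at 7.4 ± 0.906, 7.41 ± 2.27 and 11.7 ± 5.26. Ctgf, a target of this pathway, stood at 4.44 ± 2.34 FPKM (naive), 9.40 ± 4.75 (novice) and 9.02 ± 6.01 (expert) (novice minus naive 0.91 ± 0.39, adjusted p = 0.89). Smad2, which carries the signal to the nucleus, was 4.97 ± 1.38 in naive and 6.35 ± 1.22 in novice, and Ltbp3, which stores the ligand in the matrix, 4.10 ± 1.27 in novice and 5.97 ± 2.03 in expert.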

How the data were processed

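Total RNA of astrocytes was sequenced in 18 libraries, 6 per group. The authors deposited 1 FPKM value per gene and library, although the table is titled as normalized counts, and the unit was checked on the values. Per the labels' protocols, RNA was recovered by proteinase K digestion and made into stranded SMARTer libraries. Per the submitters' processing notes TopHat, Cufflinks and build mm9 were used, with versions, options and any counting by strand not given in the sources used here. Of 23951 entries, 27 with names turned into dates were left out. Read totals are not given. The value of 1 fragment on 1 kb, read from the steps between low values, was 0.622 to 1.90 FPKM in 17 libraries and unknown in expert 3, and fragment numbers estimated from it cover counting error only.

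Genes reaching 1 FPKM in 6 or more libraries (21745) were fitted as log2(FPKM + 1) with limma 3.58.1 in R 4.3.3 (eBayes with a trend, all 18 libraries, 1 mean per group, two-sided), adjusted over all of them by Benjamini and Hochberg at 0.05. Fold changes on this scale understate those of low genes. The fit was also run on simulated independent values with changes larger than any reported for the chains. That run does not show what the fit can find at the size of the differences reported here. Ratios, taken of FPKM + 1 on the log2 scale, were tested by exact permutation and correlations by permutation (SciPy 1.17.1). The labels do not say that libraries came from separate animals, so p-values measure the spread between libraries. Other pseudocounts, filters, scalings, covariates and sets of libraries were tried. Lower and higher silent-gene signal were divided at 1.8 FPKM.

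The members and lists were chosen with earlier results of these data known. Named with values are all type IV and laminin chains of at least 1 FPKM but 1, which is not reported here, 9 collagens (Col1a1, Col1a2, Col3a1, Col5a1, Col5a2, Col6a1, Col6a2, Col15a1 and Col18a1), the 8 other collagens of highest mean, the 2 chains of smallest p per direction and comparison and the 2 genes of smallest p per related list. Others are named as single facts chosen after their values were seen. Promoter windows are from RefSeq, GRCm38.p6, and exon overlaps from GENCODE, while the deposited values were made on mm9.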

Additional observations from a re-analysis of the deposited data

Results flagged for a closer look

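Within groups of 6 libraries, 39 named chains gave 117 sets of values, and in 12 of them 1 library stood far from the others, with a gap to its nearest neighbour above the 95% critical value of Dixon for 6 values. For independent, normally distributed values chance flags about 1 in 20 such sets. The values here were FPKM without a log and the sets share libraries, so that rate need not hold. Of the 12, 6 are in naive, 1 in novice and 5 in expert.

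Among basement membrane chains, Col4a2 stood at 11.7 FPKM in naive 4 (next highest 8.37), Col4a5 at 3.96 in naive 5 (next 2.10), Lama3 at 9.39 in naive 6 (next 5.27), Lamb2 at 17.8 in naive 2 (next 12.9) and Lamb3 at 3.55 in expert 4 (next 1.11). Among the other collagens, Col3a1 stood at 3.35 FPKM in naive 5 (next 1.16), Col27a1 at 5.41 in naive 6 (next 3.18), Col5a1 at 5.14 in novice 5 (next 2.91), Col18a1 at 7.15 in expert 5 (next 2.99), Col9a3 at 8.64 in expert 3 (next 4.80), Col26a1 at 2.16 in expert 4 (next 1.01) and Col11a1 at 2.30 in expert 4 (next 1.31). In all 12 sets the library that stood apart was the highest of its group. Naive 5, naive 6, novice 5, expert 4 and expert 5 are libraries of higher silent-gene signal.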

How the results depend on the processing

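The number of chains past the threshold was 0 in all 3 comparisons under every setting tried. The number of genes was also 0, except in the 8 libraries of higher silent-gene signal alone, where 2 passed in novice against naive and 2 in expert against novice. The median of the basement membrane chains in expert against novice was 0.06 as reported, 0.37 with a filter of 5 FPKM and 0.55 in the libraries of lower signal. Too few other collagens passed the filter of 5 FPKM for a median. Signs turned in the libraries of higher signal for expert against naive in Col4a2 (-0.13), Col1a1 (-0.24) and Col1a2 (-0.49) and for expert against novice in Col4a1 (-0.26) and Lama2 (-0.091). With silent-gene signal as a covariate Col1a2 was -0.018 and Col3a1 0.20, without expert 3 and expert 6 (chosen after seeing the data) -0.069 and 0.16, and Col3a1 was 0.092 with quantile normalization and 0.012 in the libraries of lower signal. The Col1a1 to Col1a2 log2 ratio of expert against naive was 0.0028 with a pseudocount of 0.1 FPKM. The correlation of Col4a1 with Col4a2 was 0.48 without its 2 farthest libraries. The cause of these shifts was not tested.

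Leaving out each library in turn, the expert against naive log2 differences ranged from -0.0081 to 0.19 for Lamb1, -0.15 to 0.19 for Col1a1, -0.059 to 0.17 for Col1a2 and -0.14 to 0.19 for Col3a1. The log2 ratios ranged from -0.077 to 0.29 for Col1a1 to Col1a2 and -0.024 to 0.24 for Lamb1 to Lamb2 in novice against naive, from -0.080 to 0.088 for Col4a1 to Col4a2, -0.26 to 0.16 for Col1a1 to Col1a2 and -0.11 to 0.082 for Lama4 to Lama5 in expert against naive, and from -0.36 to 0.053 for Col1a1 to Col1a2 in expert against novice. The other log2 differences reported for chains kept their signs. The median of the basement membrane chains ranged from -0.018 to 0.11 in novice against naive and from -0.028 to 0.22 in expert against novice. That of the other collagens ranged from 0.063 to 0.28 in novice against naive, -0.27 to -0.019 in expert against naive and -0.39 to -0.14 in expert against novice.

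With the replicate number as a block 0 genes and 0 chains passed in each comparison, and 1221, 761 and 2963 genes had an unadjusted p under 0.05, against 1000, 622 and 2360 without the block. Of 18 pairs of libraries with the same number, 10 deviated together with an r over 0.1 (median r 0.15). Of 90 pairs with other numbers 37 did (median r -0.06). Only 1 of 18 libraries was matched best by its own number. These values do not settle whether the numbers pair the samples, and the labels do not say.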
